A study of Rattus norvegicus with 9 samples.

Results

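The protein kinase C (PKC) isoforms were followed here through every probe set whose single gene symbol in the array annotation was Prkca, Prkcb, Prkcd, Prkce, Prkch, Prkcq or Prkcz. The array carried 14 such probe sets for 6 of the 7 genes, out of 8799 probe sets in all, and Prkcq was not analysed here because the annotation listed no probe set for it. Normal, non-tumor proximal colon was taken from male Sprague Dawley rats, a widely used outbred laboratory strain, that had eaten the same AIN-93G-based diet as their mothers for life. The diets differed by protein source and held casein (CAS, the control), isolated soy protein (SPI, for soy protein isolate) or hydrolyzed whey (WPH, for whey protein hydrolysate). All rats, the CAS-fed controls included, had received azoxymethane (AOM), a carcinogen that gives rise to colon tumors in rats, as 2 weekly injections of 15 mg/kg from 90 days of age, and the colons were collected 40 weeks later. Each diet was represented by a pool of RNA from 7 rats, and 3 labelled targets made in parallel from each pool were hybridized to 3 Affymetrix RG_U34A rat arrays, so there were 9 arrays. The spread between arrays of 1 diet is therefore technical, and each p-value compares RNA pools, not rats.

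PKC isoforms are serine/threonine kinases that carry signals from membrane receptors. Receptors coupled to Gq proteins or to tyrosine kinases activate phospholipase C, which releases diacylglycerol and, through inositol trisphosphate, calcium. Conventional isoforms (Prkca and Prkcb here) need both diacylglycerol and calcium, a calcium-independent group (Prkcd, Prkce, Prkch and Prkcq) needs diacylglycerol alone, and the atypical isoform Prkcz needs neither. In the intestine, PKC-delta, encoded by Prkcd, has been tied to growth arrest and programmed cell death of epithelial cells, PKC-beta to epithelial hyperproliferation and colon carcinogenesis, and PKC-zeta to cell polarity and tight junctions. PKC-beta is also abundant in neurons and lymphocytes, PKC-theta, encoded by Prkcq, in T cells, and PKC-eta, encoded by Prkch, in epithelia and T cells.

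Signals were the deposited MAS 5.0 values, which are linear, were scaled on each array to an average of 500 and came without detection calls. Between 58.6 and 60.2% of probe sets reached a signal of 100 on an array, and the median signal was between 148.7 and 164.6. Probe sets were compared where the mean of 1 or more diets reached 100, which left 5606 of 8740 probe sets other than array controls and 11 of the 14 PKC probe sets. A probe set is called higher or lower below at an adjusted p under 0.05 (limma, Benjamini-Hochberg over all 5606). Signals of different probe sets are not set against each other, because probes differ in how brightly they hybridize. The sample labels name no wash batch, so arrays with close recorded run times were grouped here into 3 inferred wash rounds. Round 1 held the CAS arrays and WPH array 2. Round 2 held SPI arrays 1 and 2 and WPH arrays 1 and 3, and round 3 held SPI array 3. Epithelial markers were present on all 9 arrays. The CAS arrays also had a higher summed signal for a list of male reproductive tract markers. Over the 9 measured markers it lay between 7338 and 7814 with CAS. With SPI that sum was 716.2 to 844.4, and with WPH it was 391.0 to 688.1. Defb1 and Ptgds had the highest CAS means of the list, 2237.9 and 1984.5, while Svs5 and Gpx5 were under 100 in every diet. The difference between SPI and WPH is computed without the CAS arrays, which enter only the estimate of the spread. With the SPI and WPH arrays alone in the fit, the same PKC probe sets were called in that comparison.

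Prkcd and Prkcz were lower, and Prkcb was higher, in colons of rats fed WPH than in those fed CAS. Of the 11 compared PKC probe sets, 1 was higher and 3 were lower with WPH than with CAS, where 20.9% of all compared probe sets were higher and 17.9% were lower. Between SPI and CAS, 1 PKC probe set was higher and 2 were lower with SPI, for the same genes, against 12.0% and 10.2% of all probe sets. Between SPI and WPH, 2 were higher with SPI, both for Prkcd, and 1 was lower, for Prkcb, against 10.1% and 9.83%. With so few PKC probe sets, these counts do not set the family apart from the rest of the array. The median log2 change over the 11 probe sets was 0.33 for WPH against CAS, -0.20 for SPI against CAS and -0.14 for SPI against WPH, beside 0.06, -0.01 and -0.08 over all 5606. The comparisons of WPH and of SPI with CAS share the CAS arrays, so their likeness is not independent support for either. In whole tissue, fewer cells of a type and less RNA per cell cannot be told apart.

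**Figure D1:**
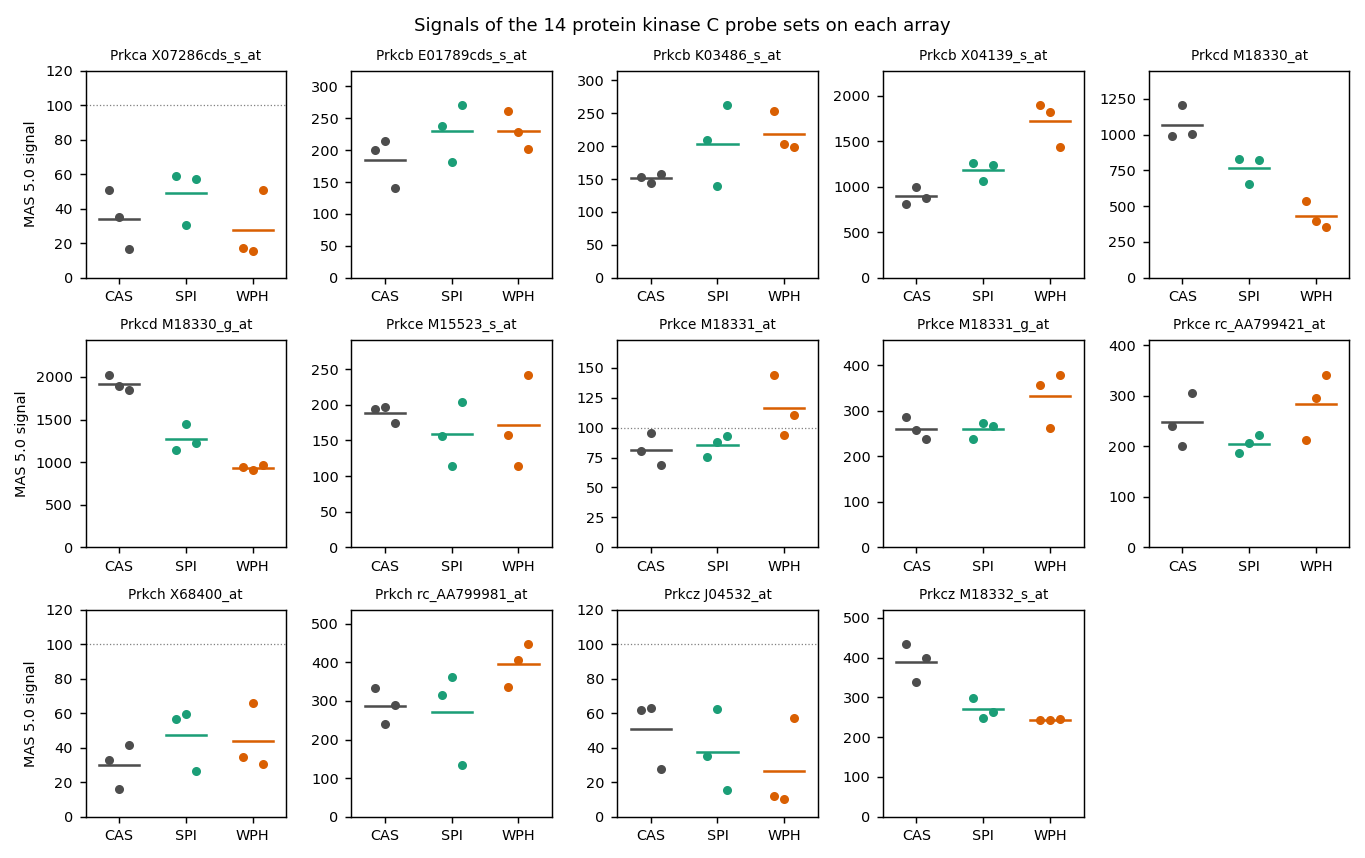
Signals (MAS 5.0, linear, y axes from 0 and of different length) of the 14 PKC probe sets on the 3 arrays of each diet; points are arrays, bars are diet means, and the dotted line, where drawn, marks the signal of 100 used as a filter. Both Prkcd probe sets fell from CAS to SPI to WPH with no overlap between diets, X04139_s_at of Prkcb ran the other way, and the probe sets of Prkca, X68400_at of Prkch and J04532_at of Prkcz stayed under 100 on every array.

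Among the conventional isoforms, Prkca, whose product is a major isoform of colonic epithelium, was measured by 1 probe set, X07286cds_s_at. Its signal was between 15.5 and 58.8 on the 9 arrays, so it was not compared and nothing can be said of its level beyond that. Prkcb was measured by 3 probe sets. The brightest, X04139_s_at, read 811.6, 1002 and 870.9 on the CAS arrays, 1260, 1067 and 1238 on the SPI arrays and 1896, 1818 and 1442 on the WPH arrays. Every SPI array was above every CAS array, and every WPH array was above every SPI array. The mean signal was 1.92-fold higher with WPH than with CAS, a log2 change of 0.94 (SE 0.13, adjusted p = 0.000162). With SPI it was 1.33-fold higher than with CAS, a log2 change of 0.41 (SE 0.13, adjusted p = 0.0438), and it was lower with SPI than with WPH by a log2 change of -0.53 (adjusted p = 0.0158). The WPH call held when any single array was left out. The SPI call was lost without CAS array 1 or 3, SPI array 1 or 3, or WPH array 2 (adjusted p up to 0.155), and the call between SPI and WPH was lost without WPH array 1 or 2 (adjusted p up to 0.0623).

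The other Prkcb probe sets were dimmer and did not pass the test. K03486_s_at read 153.7, 143.9 and 157.1 with CAS, 209.2, 140.2 and 262.4 with SPI and 253.9, 202.9 and 198.3 with WPH. All WPH arrays lay above all CAS arrays, and the SPI arrays spanned both. The log2 change for WPH against CAS was 0.52 (95% interval 0.02 to 1.01 before adjustment, adjusted p = 0.0933). E01789cds_s_at ranged from 140.5 to 270.5 with overlapping diets, and its log2 change for WPH against CAS was 0.33 (-0.14 to 0.80, adjusted p = 0.251), or 0.14 without CAS array 3. All 3 estimates were above 0 for both WPH and SPI against CAS, and the higher Prkcb level rests on 1 probe set of 3. Suffixes of the kind _s_at mark probe sets that can match more than 1 related transcript, which holds for every Prkcb probe set here.

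Prkcd, a diacylglycerol-dependent isoform that does not need calcium, gave the largest differences among the PKC probe sets. On M18330_at it read 991.6, 1206 and 1002 with CAS, 828.6, 654.8 and 825.3 with SPI and 535.1, 397.1 and 356.3 with WPH. On M18330_g_at, which was made from the same transcript record and is no independent measurement of another transcript, it read 2027, 1893 and 1843 with CAS, 1143, 1448 and 1220 with SPI and 944.9, 903.3 and 960.0 with WPH. On both probe sets the order of diets was WPH, SPI, CAS from low to high, and no array of 1 diet overlapped another diet. The mean signal was 2.48-fold lower with WPH than with CAS on M18330_at, a log2 change of -1.33 (SE 0.16, adjusted p = 6.8e-05). It was 2.05-fold lower on M18330_g_at, a log2 change of -1.04 (SE 0.10, adjusted p = 1.4e-05). These were the only PKC probe sets with a mean that differed by more than 2-fold between any of the diets.

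For SPI against CAS the probe sets of Prkcd gave different calls. M18330_g_at was 1.51-fold lower, a log2 change of -0.60 (SE 0.10, adjusted p = 0.00177), and kept its call whichever array was left out. M18330_at was 1.39-fold lower in its means, with a log2 change of -0.47 (SE 0.16, adjusted p = 0.0621). Their 95% intervals before adjustment, -0.83 to -0.37 and -0.83 to -0.11, overlapped over most of their length. SPI arrays were above WPH arrays by a log2 change of 0.85 on M18330_at (adjusted p = 0.00388) and 0.43 on M18330_g_at (adjusted p = 0.0137). Without WPH array 2, the second of these calls was lost (adjusted p = 0.0515).

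Prkce, an isoform with roles in cell survival and secretion, was measured by 4 probe sets, and none of them passed the test in any of the 3 comparisons. M18331_g_at, the brightest, read 286.8, 257.5 and 238.9 with CAS, 239.0, 273.8 and 266.8 with SPI and 355.9, 263.0 and 379.6 with WPH. WPH arrays 1 and 3 were the highest of the 9, and WPH array 2 lay among the CAS and SPI arrays. Its log2 change for WPH against CAS was 0.34 (95% interval -0.02 to 0.70 before adjustment, adjusted p = 0.131). M18331_at passed the filter only through its WPH mean of 116.1. It read 68.7 to 95.4 with CAS and 93.6 to 144.3 with WPH, which overlap, and it was not called (adjusted p = 0.174). M15523_s_at gave a log2 change of -0.20 (-0.83 to 0.42, adjusted p = 0.613) and rc_AA799421_at one of 0.18 (-0.28 to 0.64, adjusted p = 0.538), with overlapping arrays in both. The latter was 0.03 without CAS array 2 or without WPH array 3. The 95% intervals of all 4 probe sets for WPH against CAS held 0.

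Prkch was measured by rc_AA799981_at, which read 334.3, 239.6 and 290.1 with CAS, 315.3, 361.2 and 134.5 with SPI and 335.3, 407.1 and 446.9 with WPH. The WPH arrays were all above the CAS arrays, the closest by a signal difference smaller than the spread within either diet, while SPI array 3 was the lowest of all. The log2 change was 0.46 for WPH against CAS (95% interval -0.22 to 1.15 before adjustment, adjusted p = 0.272) and -0.20 for SPI against CAS (adjusted p = 0.714). The latter became 0.24 without SPI array 3. X68400_at, the other Prkch probe set, read 15.9 to 66.2 and was not compared.

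Prkcz, the atypical isoform, was lower with both test diets than with CAS. M18332_s_at read 433.8, 338.3 and 398.2 with CAS, 299.3, 247.7 and 263.1 with SPI and 242.2, 242.4 and 244.7 with WPH. All CAS arrays were above all others, and the SPI arrays lay just above the WPH arrays. The mean was 1.60-fold lower with WPH, a log2 change of -0.67 (SE 0.14, adjusted p = 0.00254), and this held whichever array was left out. It was 1.44-fold lower with SPI, a log2 change of -0.53 (SE 0.14, adjusted p = 0.0195), a call that was lost without CAS array 1 or 3 or SPI array 2 or 3 (adjusted p up to 0.0871). SPI and WPH were not told apart (log2 change 0.15, 95% interval -0.16 to 0.46 before adjustment, adjusted p = 0.510). J04532_at, the other Prkcz probe set, read 10.1 to 62.9 and was not compared, so this result also rests on 1 probe set that can match related transcripts.

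**Figure D2:**
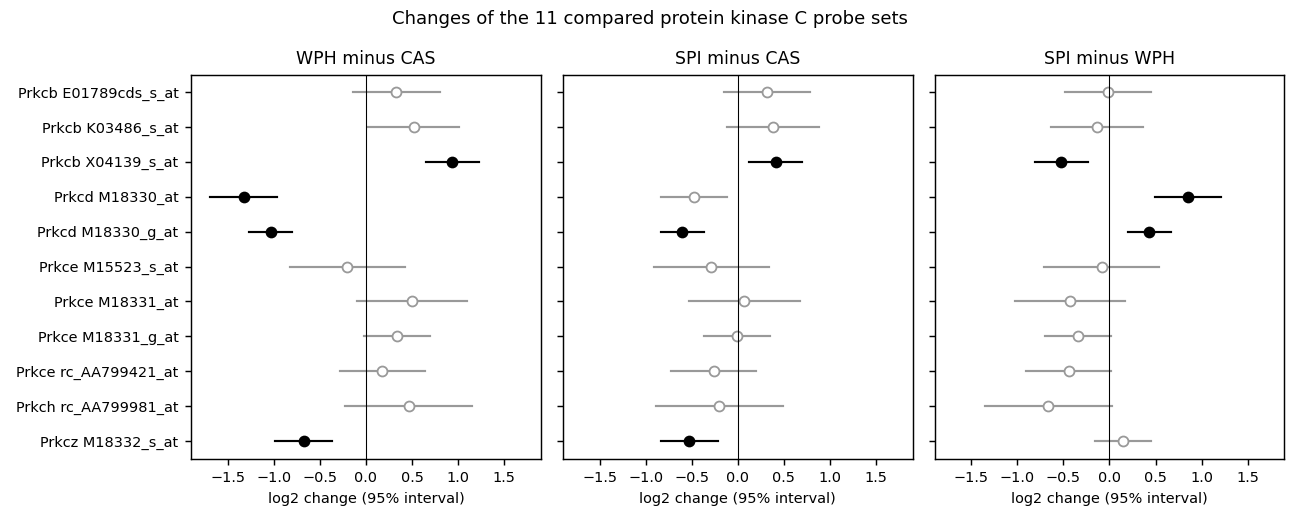
Log2 changes of the 11 compared PKC probe sets for WPH minus CAS, SPI minus CAS and SPI minus WPH (x axes), with 95% intervals before adjustment; filled points have an adjusted p under 0.05. Prkcd and Prkcz lie left of 0 and X04139_s_at of Prkcb lies right of it against CAS, and the open points of Prkce and Prkch have intervals that reach both sides of 0.

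The sequences just upstream of Prkcd and Prkcz are shown because these were the members that were lower together against CAS. RefSeq promoters on the rat build GRCr8 were given for 5 of the 7 genes (Prkca, Prkcd, Prkce, Prkcq and Prkcz). Each sequence below is the 250 bases before the gene's start on the strand of the gene, 5′ to 3′, with capitals marking the motifs GGGCGG (the core of a GC box), CCAAT (a box bound by NF-Y) and CAGGTG (an E-box) on either strand. The Prkcd window is chr16:5805840-5806089 and the Prkcz window is chr5:171212675-171212924, both on the minus strand.
Prkcd: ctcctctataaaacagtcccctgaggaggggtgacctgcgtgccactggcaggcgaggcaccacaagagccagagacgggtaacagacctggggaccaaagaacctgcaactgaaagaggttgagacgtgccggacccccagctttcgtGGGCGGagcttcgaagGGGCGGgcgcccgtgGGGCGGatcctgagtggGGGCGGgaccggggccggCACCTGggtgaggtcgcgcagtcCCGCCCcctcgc
Prkcz: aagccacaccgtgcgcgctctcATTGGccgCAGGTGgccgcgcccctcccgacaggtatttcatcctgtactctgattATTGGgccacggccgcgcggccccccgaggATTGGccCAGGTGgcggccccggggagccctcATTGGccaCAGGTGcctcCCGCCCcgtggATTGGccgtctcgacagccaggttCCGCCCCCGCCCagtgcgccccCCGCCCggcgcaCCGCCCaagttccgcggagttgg
The Prkcd window held 5 copies of GGGCGG, 0 of CCAAT and 1 of CAGGTG, and the Prkcz window held 5, 5 and 3, with no copies of different motifs overlapping. Over all 33469 windows of this length, 30.5% held GGGCGG, 34.0% held CCAAT and 15.9% held CAGGTG. Prkca held 2 copies of GGGCGG, Prkce 1 and Prkcq 1, and none of these 3 windows held the other motifs. A match of letters is a description of the window and not a binding site, and the arrays do not measure binding there.

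The isoforms that differed did so alongside markers of the tissue's cell types. Against CAS, the signal was lower with WPH for all 17 compared epithelial markers and with SPI for 12 of them, with a median log2 change of -2.19 and -0.84. Relative to the mean of the CAS arrays, the summed epithelial signal was 27.3 to 29.6% for WPH and 61.1 to 63.2% for SPI. On the same scale, Prkcd on M18330_g_at was at 47.03 to 49.98% with WPH and 59.5 to 75.4% with SPI, and Prkcz was at 62.1 to 62.7% and 63.5 to 76.7%. On M18330_at, Prkcd was at 33.4 to 50.2% with WPH. Single epithelial markers differed widely, with mean signals for CAS and WPH of 16612 and 1387 for the mucin Muc2, which weighs heavily in the sum, and of 10676 and 7384 for the lectin Lgals4. Among the compared epithelial markers, only Lgals4 (-0.53) and the trefoil peptide Tff3 (-0.95) had smaller log2 changes for WPH against CAS than Prkcd. Every other one fell by more than Prkcd on either probe set, from Fabp1 (-1.39) to Muc2 (-3.605). Each marker was taken on its brightest probe set, and another compared Muc2 probe set was not called for WPH.

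Prkcb was higher alongside markers of several other cell types. X04139_s_at was at 161.1 to 211.9% of the CAS mean with WPH and 119.3 to 140.8% with SPI. Smooth muscle markers, 9 of 10 of which were higher with either diet, summed to 189.6 to 215.2% with WPH and 141.7 to 144.5% with SPI. Neuronal markers summed to 203.9 to 217.5% and 128.3 to 146.5%, with 9 of 10 higher and 1, the granin Chgb, lower with WPH. T cell markers summed to 170.8 to 180.5% and 140.1 to 146.8%, with 6 of 9 higher with WPH and 3 with SPI. Glial markers summed to 196.6 to 284.8% with WPH and fibroblast markers to 197.5 to 232.7%. Adipocyte markers, 4 of 5 of which were higher with either diet, summed to 202.8 to 229.8% with WPH and 153.5 to 161.8% with SPI. Of the B cell and plasma cell list only Cd79b and Cd74 were measured. Cd79b, part of the B cell receptor, averaged 671.7 on the CAS, 581.1 on the SPI and 668.0 on the WPH arrays, and Cd74, the invariant chain of antigen-presenting cells, averaged 5706, 6530 and 6941 and was higher with WPH (log2 change 0.29, adjusted p = 0.0286). Macrophage markers summed to 117.8 to 131.6% with WPH and 209.7 to 217.6% with SPI, a sum that Lyz2 dominates. Of the 5 compared, 2 were higher and 1, Cd14, lower with WPH, and 3 were higher and 1, again Cd14, lower with SPI. Male reproductive tract markers were 7 of 7 lower with WPH and 6 of 7 lower with SPI. The part of these cell types in the PKC differences was not tested.

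A control ratio used to judge RNA quality and the wash round also moved with diet. The ratio of the 3′ to the 5′ probe set for beta-actin was 1.86 ± 0.03 for CAS, 2.21 ± 0.13 for SPI and 2.98 ± 0.49 for WPH (SD, n = 3), the order of diets of Prkcd, Prkcz and Prkcb. The ratio for GAPDH was 1.56 ± 0.20, 1.56 ± 0.08 and 1.64 ± 0.07. GAPDH thus did not show the rise seen for beta-actin. The beta-actin ratio ranged from 2.53 to 3.50 on the WPH arrays, where the paper stated ratios below 3. The part of RNA quality in the PKC differences was not tested. With wash round as a block, the comparison of WPH with CAS rests on WPH array 2 alone, whose spread is taken from the other arrays, and Prkcd (log2 change -1.42 and -1.09, adjusted p = 0.00347 and 0.00141), Prkcz (-0.68, adjusted p = 0.0481) and Prkcb on X04139_s_at (1.03, adjusted p = 0.00567) all kept their calls. SPI and CAS shared no round. Through the WPH arrays the block gave log2 changes for SPI against CAS of -0.65 for M18330_g_at (adjusted p = 0.136), -0.52 for Prkcz (adjusted p = 0.381) and 0.52 for Prkcb (adjusted p = 0.337), and no PKC probe set was called. For SPI against WPH within round 2, the log2 changes were 0.75 and 0.43 for Prkcd (adjusted p = 0.0620 and 0.0900) and -0.51 for Prkcb (adjusted p = 0.102), close in size to those over all arrays.

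**Figure D3:**
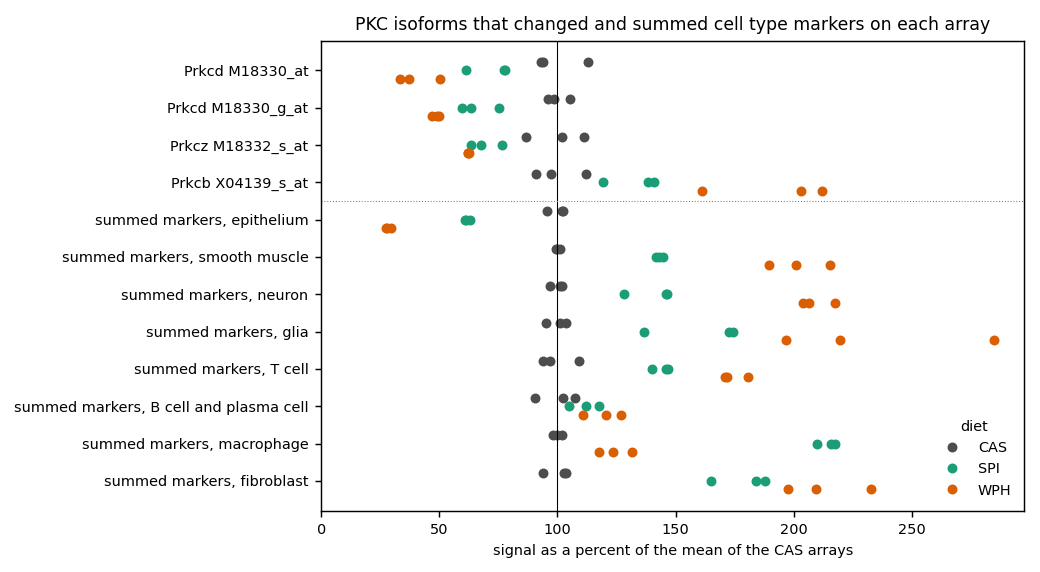
Signal on each array as a percent of the mean of the CAS arrays (x axis, from 0) for the PKC probe sets that differed and for the summed signals of marker lists; each point is an array, colored by diet. On the WPH arrays the summed epithelial signal stands at 27.3 to 29.6%, and Prkcd and Prkcz are also left of 100. Prkcb and the other 7 marker sums drawn lie to the right of 100. Of the lists not drawn, mast cell (73.4 to 96.1%) and male reproductive tract (5.14 to 9.05%) sums were also under 100 with WPH. Endothelial (133.4 to 210.4%) and adipocyte (202.8 to 229.8%) sums were over it.

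The genes whose pattern over the 9 arrays was most like that of an isoform were found by the mean absolute difference of centred log2 signals, over 3306 or 3307 other probe sets with a single symbol and a mean signal that reached 200. For Prkcd (M18330_g_at) these were Fxyd4, a regulator of the sodium pump (difference 0.0637), Slc25a10, a mitochondrial dicarboxylate carrier (0.0696), and Ppa2, a mitochondrial pyrophosphatase (0.0702), where the median over all candidates was 0.455. Fxyd4 averaged 613.2 on the CAS, 446.7 on the SPI and 308.7 on the WPH arrays. For Prkcz they were Ahcy, which hydrolyses S-adenosylhomocysteine (0.0743), Smarcd2, a chromatin remodelling subunit (0.0758), and Gda, guanine deaminase (0.0843), against a median of 0.357. For Prkcb they were the transcription factor Klf9 (0.0679), the lactate dehydrogenase subunit Ldhb (0.0681) and the thrombin receptor F2r (0.0755), against 0.374. The nearest genes to Prkce were Pde1b (0.0706), Nfkbia (0.0903) and Grik5 (0.0906), and those to Prkch were Ciao1 (0.132), Pea15 (0.133) and Fkbp1a (0.152), against medians of 0.261 and 0.404. These distances describe 9 arrays of 3 RNA pools.

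Genes that act around the PKC isoforms were taken from 6 lists, with 1 probe set a gene. The counts of calls in these lists are to be read beside the shares over all compared probe sets. These were 20.9% higher and 17.9% lower with WPH and 12.0% higher and 10.2% lower with SPI. No list was tested as a set, and with lists this short the counts are only a description. Of 9 other kinases of the PKC group, 3 were measured and only Pdpk1, which phosphorylates PKC isoforms in their activation loop, was bright enough to compare. It was not called (log2 change -0.27 for WPH and -0.25 for SPI against CAS), and Prkd3 and Pkn2 were under 100 in every diet. Phospholipases C and D, Gq proteins and inositol trisphosphate receptors lie upstream of diacylglycerol and calcium. With the phospholipase A2 Pla2g4a they formed a list of 21 genes, of which 13 were compared. With WPH 4 of these were higher and 2 lower than with CAS, and with SPI 2 were higher and 1 lower. Plcb3 was not called for WPH on its brightest probe set (log2 change -0.43, adjusted p = 0.253), but its other probe set was called lower. Pld1, which makes phosphatidic acid and is activated by PKC, averaged 583.0 ± 66.4 on the CAS, 460.1 ± 61.8 on the SPI and 214.9 ± 11.7 on the WPH arrays (SD, n = 3). That was a log2 change of -1.44 for WPH (adjusted p = 1.1e-05), and the other Pld1 probe sets were under 100 in every diet. The log2 change for its relative Pld2 was 0.79 (adjusted p = 0.000753) on the brightest probe set. Another Pld2 probe set gave 0.64 and was not called (adjusted p = 0.0648). Plcb1, the phospholipase C activated by Gq, was higher with WPH (0.86, adjusted p = 1.7e-05) and with SPI (0.52, adjusted p = 0.00165). Itpr3, a calcium release channel, was lower with WPH (-0.96, adjusted p = 3.8e-05) and SPI (-0.42, adjusted p = 0.0180).

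The list of enzymes that remove or make diacylglycerol also held Mgll, a monoacylglycerol lipase. Of its 7 compared genes, 2 were higher and 1 lower with WPH, and 1 was higher and 1 lower with SPI. The lipid phosphatase Plpp2 read 2196 ± 142.2 with CAS, 1119 ± 291.1 with SPI and 599.7 ± 20.8 with WPH (SD, n = 3), log2 changes of -1.87 and -1.01 for WPH and SPI (adjusted p = 5.4e-06 and 0.00136). Its relative Plpp1 was higher with WPH (0.71, adjusted p = 0.000468) and SPI (0.41, adjusted p = 0.0232) on the brightest probe set, though another Plpp1 probe set gave a log2 change of -0.22 for WPH (adjusted p = 0.327). Dgkz, which phosphorylates diacylglycerol, was higher with WPH (0.75, adjusted p = 0.0122).

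Of 11 compared PKC substrates, 2 were higher and 2 lower with WPH, near the shares over all probe sets, and 2 were higher and none lower with SPI. These counts use the brightest probe sets, on which Marcks and Akap12 were not called. With WPH, another Marcks probe set was called lower and another Akap12 probe set higher. Neurogranin (Nrgn), a calmodulin-binding substrate, fell from a mean signal of 261.8 with CAS to 47.0 with WPH, at least 2.62-fold lower with the WPH level taken at the filter of 100 (adjusted p = 0.000182). Ezrin (Ezr), which ties membrane to actin in the epithelial brush border, was lower with WPH by a log2 change of -1.25 (adjusted p = 3.3e-05), and the mesenchymal filament protein vimentin (Vim) was higher with WPH (1.11, adjusted p = 0.000173) and SPI (1.04, adjusted p = 0.000714). Gap43, a substrate of growing axons, was higher with WPH (1.08, adjusted p = 0.000112) and SPI (0.50, adjusted p = 0.0261).

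Proteins that anchor or inhibit PKC formed the longest list. Of 17 compared, 8 were higher and 3 lower with WPH, and 7 were higher and none lower with SPI, with median log2 changes of 0.28 and 0.24 beside 0.06 and -0.01 over all probe sets. Cavin3, which binds PKC-delta, was higher with WPH (0.99, adjusted p = 3.3e-06) and SPI (0.45, adjusted p = 0.00259), against the direction of Prkcd. Fez1, a neuronal protein that PKC-zeta phosphorylates, was higher with WPH (1.65, adjusted p = 7.4e-06) and SPI (0.92, adjusted p = 0.00140). The polarity protein Pard3 was higher as well (0.85, adjusted p = 0.00163, and 0.58, adjusted p = 0.0270), and Pawr, an inhibitor of atypical isoforms, was lower with WPH (-1.02, adjusted p = 3.1e-05) and showed a log2 change of -0.11 with SPI (adjusted p = 0.542). Rack1, the receptor for activated PKC that binds PKC-beta, was higher with WPH by a log2 change of 0.35 (adjusted p = 0.0179). Rack1 was named after its value was seen.

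Other proteins that bind diacylglycerol were represented by the chimaerins Chn1 and Chn2, regulators of Rac. On the brightest probe sets Chn1 was higher (0.68, adjusted p = 0.00746) and Chn2 lower (-0.46, adjusted p = 0.0421) with WPH. The second Chn1 probe set gave 0.12 (adjusted p = 0.572). With wash round as a block, added after the data were seen, none of the 6 lists held a call for SPI against CAS, where SPI and CAS share no round. For WPH against CAS the block leaves a single WPH array, whose spread is assumed to be that of the other arrays, so that it is a weak check. In that fit the calls of Pld1, Pld2, Plcb1, Itpr3, Plpp1, Plpp2, Dgkz, Nrgn, Ezr, Vim, Gap43, Cavin3, Fez1, Pard3 and Pawr were kept and those of Chn1, Chn2 and Rack1 were lost (adjusted p = 0.131, 0.227 and 0.0635).

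**Figure D4:**
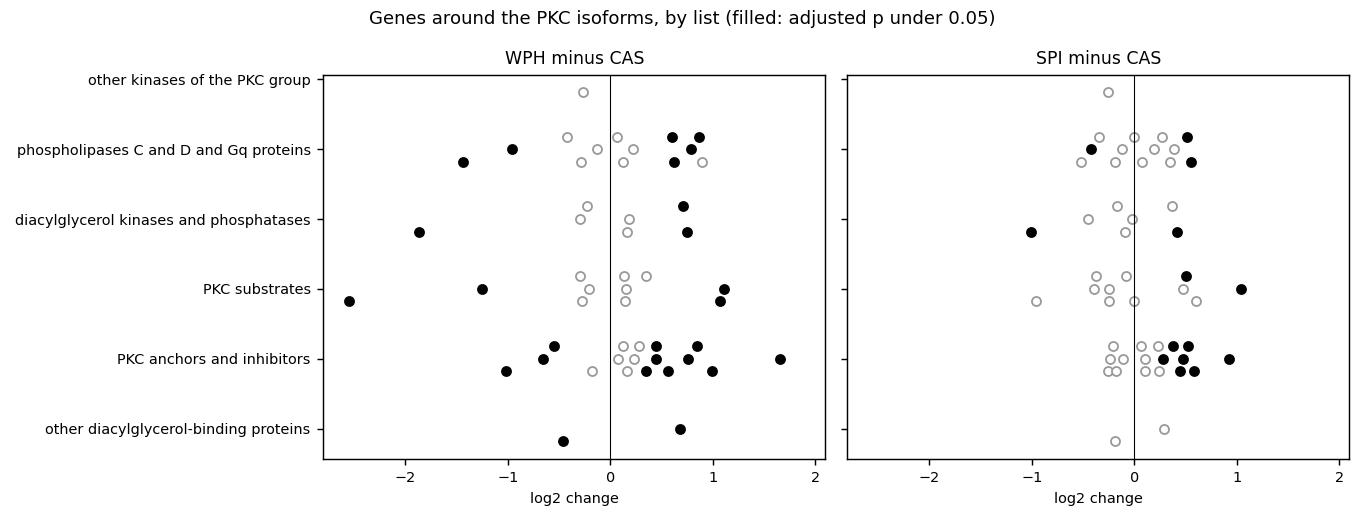
Log2 change against CAS (x axes) with WPH and with SPI of each compared gene in 6 lists around the PKC isoforms; each point is a gene, spread vertically for clarity, and filled points have an adjusted p under 0.05. Each list with more than 1 compared gene held filled points on both sides of 0 for WPH, from -2.55 (Nrgn) to 1.65 (Fez1). The size of the Nrgn change is uncertain, because its signal was under 100 on every WPH array.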

How the data were processed

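RNA from the proximal colons of 7 rats per diet was pooled, and 8 ug of pooled RNA was used for cDNA synthesis. From each pool 3 targets were made and hybridized to Affymetrix RG_U34A rat arrays. The authors computed the deposited signal intensity values with MAS 5.0, scaling every array to an average of 500. They are linear, with no detection calls. Precision is limited by 3 arrays per diet.

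Signals under 0.1 were set to 0.1 and log2 transformed. Probe sets whose mean reached 100 in any diet entered a limma fit (version 3.58.1, R 4.3.3, trended variance) of all 9 arrays, with Benjamini-Hochberg adjustment and a threshold of 0.05. The procedure was tested on simulated data. Folds are ratios of mean signals. Of 8799 probe sets, 59 were array controls, 7018 had 1 symbol, 308 had several and 1473 were not listed in the annotation. Wash rounds grouped arrays with close times in the fluidics section of the settings files. Each list gene was represented by its brightest probe set, and up to 4 genes per list were named, those with the largest change against CAS among genes that passed. The 3 most alike genes per isoform were named. The members, lists and rules were chosen with earlier results of these data known. Alternatives were another floor, pseudocount, filter, normalization, variance model, sample set and test, a block for wash round or for replicate number, and omission of each array.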

Additional observations from a re-analysis of the deposited data

How the results depend on the processing

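For WPH against CAS, the same 4 PKC probe sets, both of Prkcd, 1 of Prkcz and 1 of Prkcb, were called under every alternative fit and the methods' t-test with adjustment, and leaving out 1 array gave 4 to 5. For SPI against CAS the 3 calls became 0 with wash round as a block, 1 with the methods' t-test, 2 with no filter or without the variance trend, and 1 to 4 when 1 array was left out, with 1 without CAS array 1, CAS array 3 or SPI array 3. For SPI against WPH the 3 calls became 0 with wash round as a block and 0 with the methods' t-test, and 1 to 3 when 1 array was left out, with 1 without WPH array 2. Where these counts were 0, unadjusted p under 0.05 was reached by 2 (SPI against CAS) and 4 (SPI against WPH) of 11 probe sets with the wash block, and by 3 (SPI against WPH) with the t-test. The cause of these losses was not tested.

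With the replicate number as a block, 4 PKC probe sets were called between WPH and CAS, 2 between SPI and CAS and 3 between SPI and WPH, the lost call being Prkcb for SPI against CAS (adjusted p = 0.0787). Arrays with the same number did not deviate together (correlations from -0.275 to 0.237, 1 of 9 over 0.1), so the number is not read as a pairing.

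Signs turned only for changes that had not been called. For SPI against CAS, M18331_at of Prkce became -0.42 with wash round as a block and ranged from -0.045 to 0.19 when 1 array was left out, M18331_g_at became 0.026 with quantile normalization and 0.018 with median centring and ranged from -0.067 to 0.065, and Prkch became 0.31 with the wash block and ranged from -0.47 to 0.24, the top of which was without SPI array 3. For M15523_s_at of Prkce, leaving out 1 array gave -0.49 to 0.059 for WPH against CAS and -0.34 to 0.20 for SPI against WPH. For Prkcb between SPI and WPH it gave -0.14 to 0.15 on E01789cds_s_at and -0.34 to 0.11 on K03486_s_at. In the lists, the wash block left 0 calls for SPI against CAS for the phospholipases, diacylglycerol enzymes, substrates and anchors. For SPI against WPH it left 1 for the phospholipases and 2 for the anchors. For the chimaerins with WPH, 1 call was left with median centring and 0 with the wash block. Signals under 100, as for Prkca, were too dim to be compared.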
